A study of Homo sapiens with 24 samples.

Results

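RWPE1 cells, an immortalized human prostate epithelial line that does not form tumors, were followed between 6 h and 24 h inside treated cultures. The members are the 8 arrays titled 100 nM 1,25(OH)2D 24h or 100 nM 1,25(OH)2D 6h, 4 at each time, of the 24 arrays of the series. 1,25(OH)2D (1,25 dihydroxyvitamin D, or calcitriol) is the hormonal form of vitamin D. The cells grew in serum-free keratinocyte medium with insulin and epidermal and fibroblast growth factors and received 100 nM of the hormone or vehicle. The 8 vehicle arrays of the same hours (ethanol alone, 4 at 6 h and 4 at 24 h) show what those hours did without the hormone. The 8 arrays of the 48 h cultures, in which alone the medium was replaced, entered no main comparison. They took part in the probe set filter, the choice of 1 probe set per gene and an alternative fit of all 24 arrays. All cells belong to 1 line, and the labels number 4 biological replicates in each group without saying what a number stands for. Should the 4 samples of a group share a culture, the p-values would reflect technical spread alone.

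1,25(OH)2D enters the cell and binds the vitamin D receptor (VDR), which pairs with a retinoid X receptor, settles on response elements in the DNA and recruits coactivators. Direct target genes answer within hours. One of them, CYP24A1, encodes the 24-hydroxylase that inactivates the hormone, so the signal carries its own brake, and the products of early targets include transcription factors, phosphatases and secreted proteins that can act on later genes. In epithelial cells the hormone is known for slowing growth and for promoting differentiation and antimicrobial defence.

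Every level given here is the log2 value the authors deposited for a probe set of an Affymetrix U133 Plus 2.0 array, and 1 unit is 2-fold. A change is the mean at 24 h minus the mean at 6 h in log2, an effect is the treated mean minus the vehicle mean at 1 time, and ± is the SD of 4 arrays. A gene is called at an adjusted p under 0.05 (limma, Benjamini-Hochberg over all tested probe sets), and 12008 genes were tested. The bulk RNA of a culture cannot tell fewer cells that express a gene from less RNA per cell. KRT5 and KRT14, keratins of basal epithelium, lay at 15.24 to 15.38 and 16.04 to 16.12 at 6 h and at 15.25 to 15.44 and 16.08 to 16.18 at 24 h in treated cells, without a call. KLK3 (prostate specific antigen), a luminal marker, lay at 3.42 to 4.03 and 3.71 to 5.20, low in the table: a probe set was tested where 3 of 4 arrays of some group reached 3.20. The other tested luminal markers were the keratins KRT8 and KRT18. Summed over all 3 luminal genes, treated arrays lay at 14.38 to 14.95 at 6 h and 14.75 to 15.29 at 24 h. Luminal markers were thus not low as a set. Of the 6 basal markers 5 were tested, and LAMB3, a laminin chain, was the 1 that was called. Of 3 tested luminal, 3 stromal, 3 endothelial, 2 leukocyte and 1 neuroendocrine markers 0 were called in treated cells (in limma on vehicle arrays KDR, an endothelial marker, was called higher). Their summed levels overlapped between the times in treated cells (stromal 10.36 to 10.70 at 6 h and 9.96 to 10.75 at 24 h).

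Treated replicates 1 and 4 at 24 h stood apart from the others. In the values minus their group means, 1 principal component held 71.9% of the variance, on which they lay at 0.413 and -0.544, and the same component set apart vehicle replicate 1 at 6 h (-0.346) and at 24 h (-0.36). Averaged over genes, the SD was 0.399 in treated cells at 24 h against 0.253 to 0.272 in the other groups used here. The 3′ minus 5′ signal of the actin control, a measure of RNA integrity in log2, was 0.64 to 0.72 in the treated arrays at 6 h and 0.73, 0.53, 0.59 and 0.46 in replicates 1 to 4 at 24 h. The part of these arrays in the results below is given by leaving them out.

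Between 6 h and 24 h, 256 genes rose and 238 fell in treated cells, 2.13% and 1.98% of the genes tested. The falls were steeper: 139 fell and 116 rose at least 2-fold, and 46 fell and 12 rose at least 4-fold. All 494 called genes had treated arrays that did not overlap between the times, as did 15.01% of all genes. In vehicle cells 310 genes (2.58%) rose and 280 (2.33%) fell over the same hours. With the replicate number as a block, the vehicle counts of probe sets went from 513 higher and 611 lower to 1937 and 2218. Same-numbered arrays deviated together in vehicle but not throughout in treated cells. Among the vehicle replicates, 1 and 2 alone correlated best with their own number. In treated cells 426 probe sets were called higher and 452 lower, 878 in all. Leaving out replicate 1, 2, 3 or 4 at 6 h gave 526, 550, 438 or 375 calls, and leaving out replicate 1, 2, 3 or 4 at 24 h gave 1076, 395, 460 or 932. Without both arrays that stood apart 628 probe sets were called, among them 486 of the 878, and 0 of the 878 changed sign. For the called genes a change of sign was not possible there, since their arrays did not overlap between the times. In vehicle cells the total of 1124 went to 1655, 310, 455 or 507 without replicate 1, 2, 3 or 4 at 6 h and to 1193, 555, 292 or 258 without replicate 1, 2, 3 or 4 at 24 h.

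Part of what moved in treated cells moved in vehicle cells as well. Of the 256 rises 78 (30.5%) also rose in vehicle, 25.2% of the vehicle rises, and of the 238 falls 56 (23.5%) also fell there, 20% of the vehicle falls. These shares rest on unpaired vehicle arrays. When the vehicle arrays were blocked by replicate number, 156 of the 256 rises (60.9%) and 86 of the 238 falls (36.1%) were shared, 13.5% and 8.37% of the vehicle calls in those directions. The median change of the rises was 0.95 in treated and 0.49 in vehicle cells, and that of the falls was -1.18 and -0.20. The treated change minus the vehicle change, the test of whether the hormone altered the course, called 72 genes (0.6%) higher and 157 (1.31%) lower. It called 34 of the 256 rises higher and 120 of the 238 falls lower. A further 145 rises and 69 falls were called neither in vehicle nor in the difference, and for those the data do not show whether treated and vehicle cells moved apart (71 and 45 with the blocked vehicle calls). The median change of all genes was 0.04 in treated and -0.01 in vehicle cells.

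**Figure D1:**
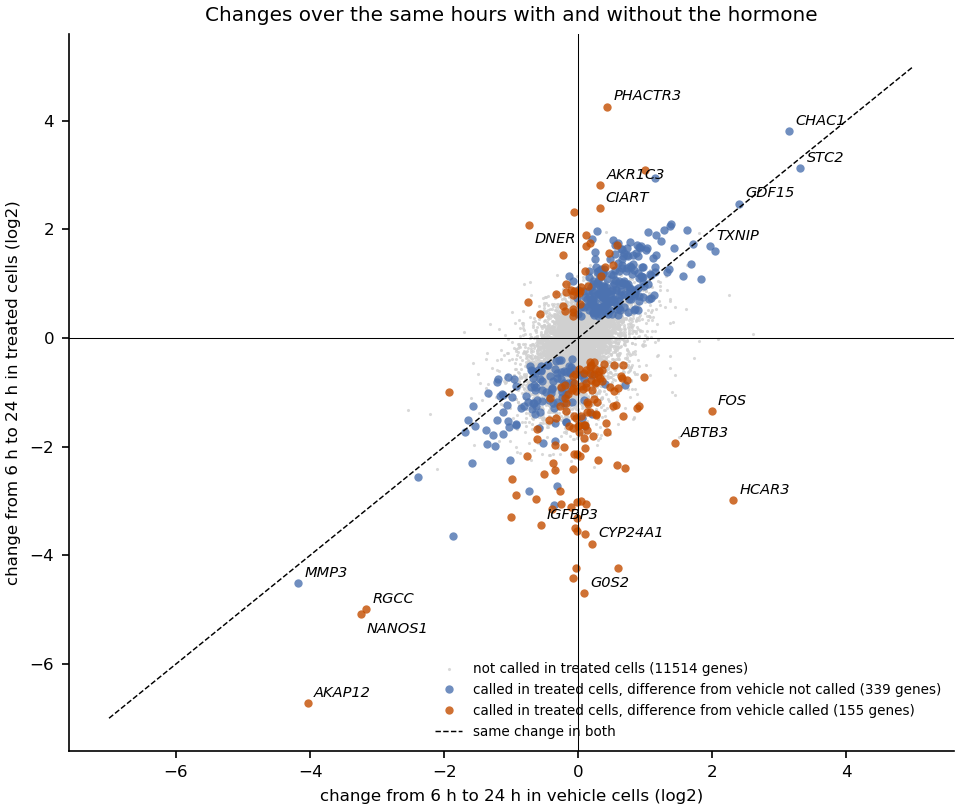
Change from 6 h to 24 h of each of 12008 genes in vehicle cells (horizontal axis, log2) and in treated cells (vertical axis, log2). Each point is a gene, the dashed line marks the same change in both, and colors show the calls. The called falls lie mostly far below the line near 0 on the vehicle axis (G0S2, CYP24A1), while CHAC1, STC2 and GDF15 lie close to the line.

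The early response itself was set by the arrays at 6 h, where 284 genes (2.37%) were higher and 125 (1.04%) lower with 1,25(OH)2D than with vehicle. With at least 1.5-fold as a second condition, 259 early rises and 97 early falls remained. PMEPA1 was just inside (effect 0.74, adjusted p = 0.0495) and SPTLC2 just outside (0.76, adjusted p = 0.0562). These counts share the treated arrays at 6 h with the treated change, so the shares that follow are descriptions. Of the early rises 137 (52.9%) fell between 6 h and 24 h, 116 were not called and 6 rose further. Of the early falls 40 (41.2%) rose, 56 were not called and 1 fell further.

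The effect at 24 h shares no array with the early effect that chose these genes, although the probe set filter and the choice of 1 probe set per gene used all groups. At that time 39 genes (0.325%) were called higher and 23 (0.192%) lower with 1,25(OH)2D among all genes. At an unadjusted p under 0.05 (limma) 625 genes were higher and 551 lower at 24 h, against 692 and 673 at 6 h. Fewer calls at 24 h thus do not by themselves show fewer effects. Of the 259 early rises 25 were still called higher and 1, IGFBP3, was called lower. Their median effect went from 1.23 at 6 h to 0.22 at 24 h, and in 205 (79.2%) less than 50% of it was left. Early rises and falls were chosen on the effect at 6 h, so its size there can be raised by that choice. How much of the drop this makes was not tested. The classes by treated change were chosen with the treated arrays at 24 h, so their values are descriptions. In the 137 that fell, the median went from 1.59 to 0.12 (quartiles -0.07 and 0.40), with 9 still called, and the median change of the same genes in vehicle was 0.01. In the 116 that were not called it went from 1.08 to 0.34, and in the 6 that rose further from 1.90 to 2.95. The early falls went from -0.95 to -0.30, with 6 still called.

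**Figure D2:**
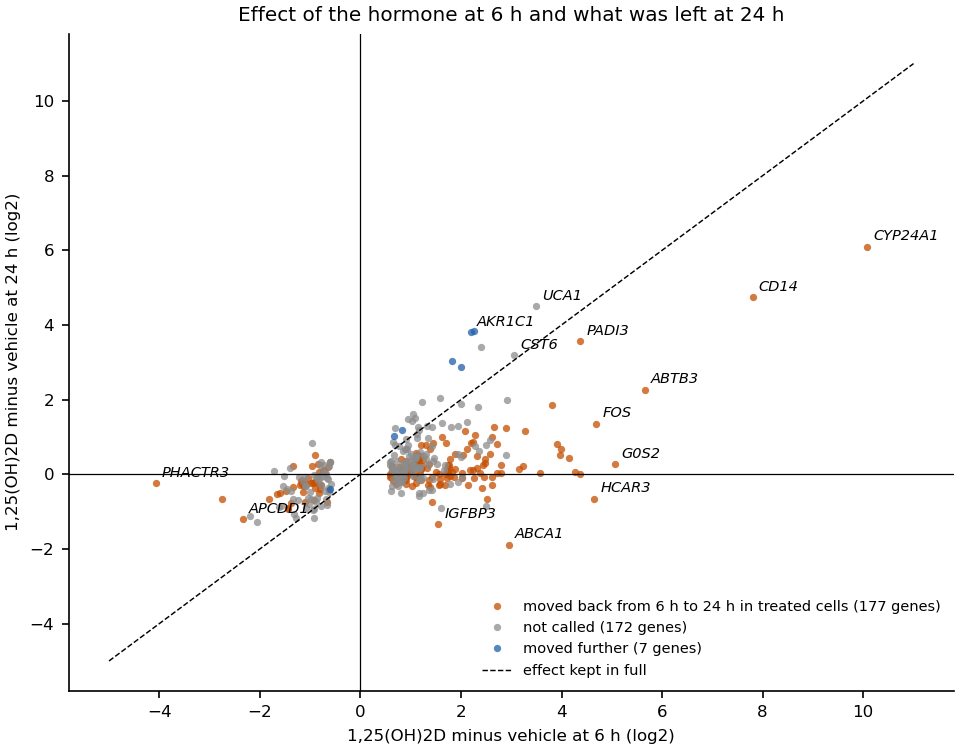
Effect of 1,25(OH)2D at 6 h (horizontal axis, log2) and at 24 h (vertical axis, log2) for the 259 early rises and 97 early falls, 1 point per gene. Colors show how the gene moved from 6 h to 24 h in treated cells, and on the dashed line the effect was kept in full. Most points lie near 0 on the vertical axis, CYP24A1 and CD14 keep a large effect, and UCA1 and AKR1C1 lie above the line.

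Some of the strongest early genes fell steeply and still stood far above vehicle at 24 h. CYP24A1 measured 13.69, 13.65, 13.90 and 13.72 at 6 h and 10.91, 9.99, 10.03 and 8.90 at 24 h in treated cells, while vehicle cells held 3.48 to 4.06 and 3.51 to 4.51. No array at 24 h reached the level at 6 h, and the fall was 13.8-fold (-3.79, SE 0.37, adjusted p = 0.00215). An effect of 6.10 was left of 10.08 (adjusted p at 24 h = 0.00220). CD14, a coreceptor for bacterial lipopolysaccharide, measured 11.19, 11.20, 10.67 and 10.71 at 6 h and 7.88, 7.89, 7.54 and 8.46 at 24 h in treated cells against 3.08 to 3.21 and 3.08 to 3.38 in vehicle. It fell 7.996-fold (adjusted p = 0.000604) and kept an effect of 4.75 (adjusted p = 0.000202), all treated arrays lying above all vehicle arrays at both times. Vehicle values of CD14 lie near the filter threshold of 3.20, so the size of its effect rests on a background level. PADI3, a peptidylarginine deiminase that modifies hair and epidermal proteins, fell from 12.28 ± 0.14 to 10.91 ± 0.41 and kept an effect of 3.58 (adjusted p = 0.00324). Its fall was lost as a call without 2 of the 8 arrays, with an adjusted p of up to 0.0587.

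The same partial return was seen in genes of several roles. DUSP10, a phosphatase that inactivates p38 and JNK, fell from 8.80 ± 0.16 to 6.77 ± 0.04 (adjusted p = 9.08e-05) with an effect of 1.15 left (adjusted p = 0.0336). THBD (thrombomodulin), the endothelial and epithelial cofactor that turns thrombin toward protein C, fell from 12.53 ± 0.32 to 10.36 ± 0.07, with 1.26 left (adjusted p = 0.00220). SERPINB1, an inhibitor of neutrophil elastase, kept 0.80 of 2.72 (adjusted p = 0.0450). In vehicle cells DUSP10 and SERPINB1 changed by 0.10 and 0.08 without a call, and THBD fell by 0.76 (adjusted p = 0.0172). P2RY2, a receptor for extracellular ATP and UTP, fell 7.40-fold (adjusted p = 0.00251), and its remaining effect of 1.86 was not called (adjusted p = 0.0721). LAMB3 fell from 12.31 ± 0.08 to 10.88 ± 0.24, and its remaining effect of 0.40 was not called (adjusted p = 0.501).

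Another group of early rises was back in or near the vehicle range at 24 h, with no called effect left. G0S2, an inhibitor of adipose triglyceride lipase, measured 9.68, 9.55, 9.40 and 9.80 at 6 h and 6.15, 5.32, 4.09 and 4.08 at 24 h in treated cells, and 4.56, 4.55, 4.52 and 4.54 and 5.001, 4.18, 5.02 and 4.33 in vehicle. At 24 h the treated replicates 1 and 2 lay above, and replicates 3 and 4 below, all vehicle arrays. Its fall was 26.0-fold (-4.70, SE 0.46, adjusted p = 0.00205). GEM, a small GTP-binding protein that inhibits voltage-gated calcium channels, measured 6.88, 6.96, 7.38 and 7.43 at 6 h and 2.93, 2.93, 2.90 and 2.96 at 24 h, against 2.79 to 2.90 in vehicle, and fell 18.8-fold (adjusted p = 2.71e-05). Its level at 24 h lies below the filter threshold, so the size of the fold rests on a background level. ADAMTS15, a secreted metalloproteinase that cleaves proteoglycans, fell from 5.77 to 6.97 to 2.02 to 2.04, and SHE, an adaptor with an SH2 domain, from 4.70 to 6.43 to 2.14 to 2.20, both ending at background as well. SEMA6D, a transmembrane semaphorin, fell from 6.58 to 7.34 to 2.97 to 3.99, against 2.62 to 3.22 in vehicle. The effects left at 24 h in these 5 genes were 0.28, 0.07, 0.02, 0.03 and 0.44, with adjusted p from 0.601 to 0.875.

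Secreted and metabolic products of the early response followed the same course. PLAT, the tissue plasminogen activator, fell from 7.01 ± 0.13 to 4.04 ± 0.23 in treated cells (adjusted p = 8.15e-05), with 4.13 ± 0.37 in vehicle at 24 h. PLAU, the urokinase plasminogen activator, fell from 10.35 ± 0.10 to 8.98 ± 0.10 (adjusted p = 0.000415), with 8.97 ± 0.24 in vehicle. The arrays of both plasminogen activators overlapped those of vehicle at 24 h. CYP26B1, which degrades retinoic acid, fell from 9.69 ± 0.42 to 6.88 ± 0.23 (adjusted p = 0.000860), and PTGS2 (cyclooxygenase 2) from 7.17 ± 0.64 to 4.10 ± 0.76 (adjusted p = 0.0112). The fall of PTGS2 lost its call without 1,25(OH)2D replicate 4 at 6 h (adjusted p = 0.0512). KLK6, a kallikrein protease, fell from 4.54 to 7.25 to 2.35 to 3.63 (adjusted p = 0.0310), a call lost without 6 of the 8 arrays, with an adjusted p of up to 0.113. IL1B, the inflammatory cytokine, fell from 7.22 ± 0.18 to 6.12 ± 0.09 (adjusted p = 0.00234) and also fell in vehicle, by 0.43.

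**Figure D3:**
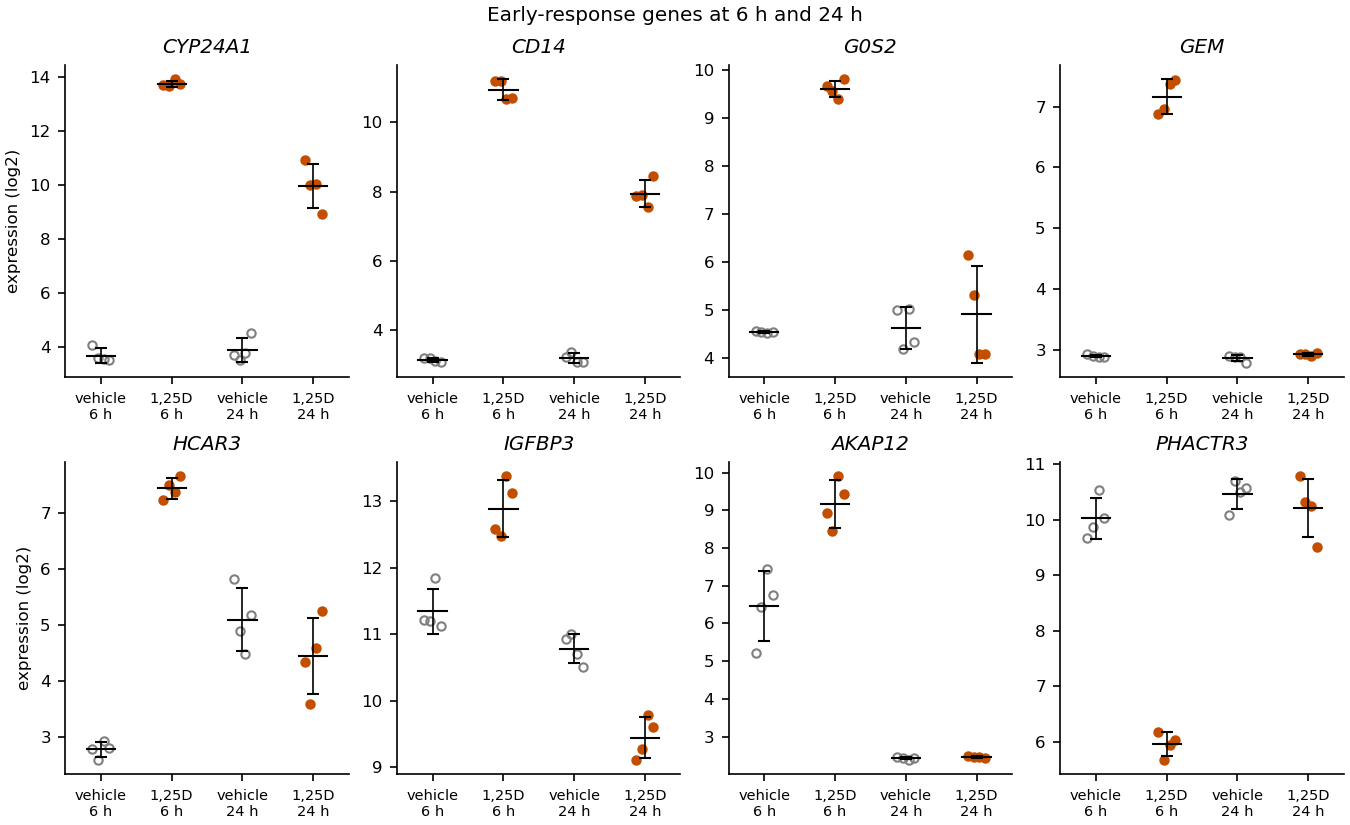
Level (log2, vertical axes differ) of 8 early-response genes on each array at 6 h and 24 h. Open circles are vehicle and filled circles 1,25(OH)2D arrays, and the bars show the mean and SD of 4 arrays. CYP24A1 and CD14 stay above vehicle at 24 h, G0S2 and GEM are back in or near its range, HCAR3 meets a rising vehicle level, IGFBP3 ends below vehicle, AKAP12 falls in both, and PHACTR3 rises back.

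Genes of the thioredoxin and glutathione systems were among the falls. Of 28 tested genes of the list of NRF2 and antioxidant genes 4 fell and 0 rose in treated cells and likewise in vehicle cells, with medians of 0.12 and 0.06. SRXN1 and GCLM fell in both, TXNRD1 and GCLC in treated cells alone. TXNRD1, the cytosolic thioredoxin reductase, measured 10.66, 10.60, 11.33 and 11.33 at 6 h and 8.75, 7.74, 8.09 and 6.72 at 24 h in treated cells, a fall of 8.91-fold (adjusted p = 0.00780) on non-overlapping arrays. Vehicle cells held 7.85 to 8.37 and 7.39 to 7.99, and the treated arrays at 24 h surrounded the latter. GCLC, the catalytic subunit of the enzyme that starts glutathione synthesis, fell from 12.35 ± 0.27 to 10.37 ± 0.63 (adjusted p = 0.0155), and GCLM, its modifier subunit, from 9.42 ± 0.25 to 8.45 ± 0.20 (adjusted p = 0.0187), with a fall of 0.55 in vehicle cells (adjusted p = 0.0378). SRXN1 (sulfiredoxin) fell by 1.18 in treated and by 0.75 in vehicle cells. GCLC and GCLM lost their calls without 3 and 4 of the 8 arrays (adjusted p up to 0.0665 and 0.0779). The difference from vehicle was called for TXNRD1 (-2.76, adjusted p = 0.00678) and GCLC (-1.63, adjusted p = 0.0449). NRF2 is known to bind the antioxidant response element, searched here as TGACNNNGC on both strands. Of the 22 genes of the list with a promoter in the RefSeq table (GRCh38.p14, from 250 bases before to 50 after the transcription start) 40.9% held it, against 19.5% of 9849 tested genes and 13.3% of all 35116 promoters. The promoters of TXNRD1 (the first of 2, chr12:104215529-104215828, plus strand) and GCLM (chr1:93909381-93909680, minus strand) are shown because they are those that hold it among the 4 genes that fell, while GCLC and SRXN1 had no match, with the element or its reverse complement in capitals.
TXNRD1: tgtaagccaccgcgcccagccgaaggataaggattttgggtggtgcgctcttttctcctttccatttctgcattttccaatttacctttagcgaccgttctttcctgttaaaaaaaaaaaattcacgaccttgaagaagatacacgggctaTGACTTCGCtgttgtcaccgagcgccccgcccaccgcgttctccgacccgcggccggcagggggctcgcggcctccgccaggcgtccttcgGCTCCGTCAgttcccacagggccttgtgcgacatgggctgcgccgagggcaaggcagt
GCLM: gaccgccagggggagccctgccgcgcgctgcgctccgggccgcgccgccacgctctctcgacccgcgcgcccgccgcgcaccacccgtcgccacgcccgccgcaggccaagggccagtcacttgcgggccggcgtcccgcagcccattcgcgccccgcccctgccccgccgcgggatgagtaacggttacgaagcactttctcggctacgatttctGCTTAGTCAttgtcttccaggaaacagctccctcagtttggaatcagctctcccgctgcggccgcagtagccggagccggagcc
A match describes these letters only, and no binding was measured here.

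A few early rises met or passed below the vehicle level. IGFBP3, the main binding protein of the insulin-like growth factors, measured 12.58, 12.48, 13.38 and 13.13 at 6 h and 9.11, 9.27, 9.78 and 9.60 at 24 h in treated cells, against 11.21, 11.20, 11.85 and 11.12 and 10.92, 11.003, 10.70 and 10.51 in vehicle. All treated arrays lay above vehicle at 6 h and below it at 24 h. The fall was 10.9-fold (adjusted p = 0.000567) and the effect went from 1.55 (adjusted p = 0.0131) to -1.34 (adjusted p = 0.0337). ABCA1, the cholesterol efflux transporter, measured 8.79, 8.84, 9.69 and 9.29 at 6 h and 5.83, 5.21, 5.52 and 3.12 at 24 h (adjusted p = 0.00855), against 6.46 to 7.19 in vehicle at 24 h. All its treated arrays at 24 h lay below the vehicle arrays, but replicate 4 lay far below the rest and the effect of -1.88 was not called (adjusted p = 0.402). Of 11 tested genes of cholesterol efflux and LXR, ABCA1 fell and 3 rose in treated cells, and 3 rose in vehicle cells. ABCG1, also an efflux transporter, rose from 7.46 ± 0.44 to 8.83 ± 0.11 (adjusted p = 0.0146), SREBF1, the regulator of fatty acid synthesis, from 8.90 ± 0.09 to 9.71 ± 0.14 (adjusted p = 0.00615), and SCARB1, the receptor of high density lipoprotein, from 10.51 ± 0.10 to 11.26 ± 0.30 (adjusted p = 0.0474). ABCG1 and SREBF1 rose in vehicle as well, by 0.82 and 0.85. A second tested SREBF1 probe set changed by 0.07 in treated cells without a call. ABCG1 had been an early fall (-1.45) and was still called lower than vehicle at 24 h (-0.90, adjusted p = 0.0283). The call of SCARB1 was lost without 7 of the 8 arrays and that of ABCG1 without 2 (adjusted p up to 0.164 and 0.0559).

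Of the 238 falls in treated cells 15 were rises in vehicle. HCAR3, a receptor for hydroxylated fatty acids, measured 7.22, 7.48, 7.37 and 7.65 at 6 h and 4.34, 3.59, 4.58 and 5.25 at 24 h in treated cells, and 2.79, 2.59, 2.93 and 2.80 and 5.81, 4.88, 4.48 and 5.18 in vehicle. Both courses met, with overlapping arrays at 24 h, and the difference of the changes was -5.30 (adjusted p = 1.06e-05). FOS, which with JUN proteins forms AP-1, measured 8.15, 8.44, 8.14 and 8.19 and 6.59, 6.32, 7.14 and 7.50 in treated and 3.02, 3.55, 3.74 and 3.86 and 5.57, 5.51, 5.71 and 5.32 in vehicle cells. The treated arrays stayed above vehicle at both times. The fall of FOS (adjusted p = 0.0322) lost its call without 7 of the 8 arrays, with an adjusted p of up to 0.108, while the difference of the changes (-3.33) had an adjusted p of 6.46e-05. ABTB3, a protein with ankyrin repeats and a BTB domain, fell by 1.94 in treated and rose by 1.44 in vehicle cells (difference adjusted p = 6.81e-08), and an effect of 2.27 was left (adjusted p = 0.00220). RASSF5, a Ras effector, fell by 2.40 and rose by 0.69 in vehicle, with 0.82 left (adjusted p = 0.0332).

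Immediate early genes divided. Of 26 tested genes of that list 6 fell and 5 rose in treated cells, and their median was -0.09. EGR3, a zinc finger transcription factor, fell from 5.66 to 5.91 to 3.31 to 3.40 in treated cells (adjusted p = 3.20e-05), against 3.25 to 3.42 in vehicle. FOSL1, an AP-1 subunit, fell by 1.64, KLF4, a differentiation factor of epithelia, by 1.57, ZFP36 (tristetraprolin), which hastens the decay of cytokine mRNAs, by 1.36, and MAFF, a small MAF factor, by 0.76 (adjusted p = 0.0102, 0.0421, 0.000765 and 0.0190). FOS completes the 6, and all 6 had been early rises. The 5 that rose were ATF3 and EGR1, transcription factors of the stress and growth factor responses, IER3, a survival protein, BTG1, an antiproliferative factor, and CCN1, a matricellular protein, with changes of 1.72, 1.27, 1.23, 0.77 and 0.53. ATF3, EGR1 and BTG1 rose about as far in vehicle (1.71, 1.35 and 0.74). A second tested ATF3 probe set changed by 0.23 in treated cells without a call. IER3 and CCN1 had been lower with the hormone at 6 h (-1.21 and -0.92), and CCN1 was still lower at 24 h (-0.68, adjusted p = 0.0337). KLF4, MAFF, ATF3, EGR1, IER3, BTG1 and CCN1 lost their calls without 3 to 7 of the 8 arrays (adjusted p up to 0.151, in BTG1).

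Several steep falls were shared with vehicle cells. AKAP12, a scaffold for protein kinases A and C, measured 8.93, 8.44, 9.91 and 9.44 at 6 h and 2.48, 2.46, 2.45 and 2.42 at 24 h in treated cells, and 5.22, 6.43, 7.44 and 6.75 and 2.46, 2.44, 2.38 and 2.43 in vehicle. The treated fall was 106-fold (adjusted p = 5.71e-05), and both groups ended at background, on which the size of the fold rests. With both groups there at 24 h (effect 0.02), the difference of their changes restates the effect of 2.72 at 6 h. NANOS1, an RNA-binding repressor of translation, fell from 8.56 ± 0.14 to 3.47 ± 0.38 in treated and from 6.98 ± 0.25 to 3.74 ± 0.16 in vehicle cells. RGCC, a regulator of the cell cycle, fell from 8.27 ± 0.14 to 3.28 ± 0.17 and from 5.95 ± 0.67 to 2.78 ± 0.13. MMP3 (stromelysin), which degrades matrix proteins, was no early gene (effect 0.50 at 6 h) and fell by 4.51 in treated and 4.18 in vehicle cells. CYP1B1, a cytochrome of estrogen and xenobiotic metabolism, fell by 3.64 (adjusted p = 0.00923), with a vehicle change of -1.87 that was not called (adjusted p = 0.0764). Neither MMP3 nor CYP1B1 was called in the difference (-0.33 and -1.77). Of 15 tested genes of the plasminogen system and matrix metalloproteinases MMP3, ADAMTS15, PLAT and PLAU fell and 0 rose.

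Genes that the hormone had lowered at 6 h came back unevenly. PHACTR3, a regulator of protein phosphatase 1 and actin, measured 6.18, 5.67, 5.95 and 6.03 at 6 h and 10.79, 10.32, 10.24 and 9.51 at 24 h in treated cells, and 9.68, 9.86, 10.53 and 10.04 and 10.08, 10.70, 10.50 and 10.57 in vehicle. It rose 19.2-fold (adjusted p = 0.000261), and the treated and vehicle arrays overlapped at 24 h. FIBIN, a secreted protein, rose from 3.10 ± 0.61 to 6.19 ± 0.22, still below all vehicle arrays (6.64 to 7.27), with an effect of -0.65 that was not called (adjusted p = 0.294). ETS2, a transcription factor downstream of Ras, rose by 1.57 and WNT7A, a Wnt ligand, by 1.75 (adjusted p = 0.00210 and 0.00475), and for both the difference from vehicle was called (1.11 and 1.58). PRICKLE1, of planar cell polarity, rose by 1.74 (adjusted p = 0.00755), with a difference of 1.15 that was not called. PRR16, a regulator of cell size, rose by 1.23 (adjusted p = 0.0197). APCDD1, an inhibitor of Wnt signaling at the cell surface, rose from 6.39 to 6.97 to 7.44 to 7.74 (adjusted p = 0.0290), and it stayed below all vehicle arrays (8.56 to 8.88, effect -1.21, adjusted p = 0.00530). The rises of PRR16 and APCDD1 each lost their call without 4 of the 8 arrays (adjusted p up to 0.0777 and 0.108). Of 20 tested Wnt genes 4 rose and 2 fell, and the median was 0.01.

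Other early falls were not called in the treated change. PTGER4, a receptor of prostaglandin E2, changed by 0.95 (adjusted p = 0.214) and EDN1, the vasoactive peptide endothelin 1, by 0.36 (adjusted p = 0.493). LRIG3, a transmembrane protein with leucine-rich repeats, changed by 1.48 (adjusted p = 0.0682), and its treated replicate 4 lay at 5.66 at 24 h with the other 3 between 6.65 and 7.26. In KCNJ15, an inward rectifier potassium channel, the vehicle level moved instead. It measured 5.04 to 5.35 at 6 h and 4.69 to 5.95 at 24 h in treated cells, and 6.31 to 7.43 and 5.07 to 5.32 in vehicle, a vehicle fall of 1.70 (adjusted p = 0.00859). The effect of -1.72 at 6 h was thus 0.10 at 24 h without a call in treated cells.

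The vitamin D system was read from 15 tested genes of a list of 30, of which 2 rose and 6 fell. The 6 were the targets CYP24A1, CD14, G0S2, IGFBP3, THBD and DUSP10. VDR, the receptor, measured 10.71, 10.73, 10.64 and 10.84 at 6 h and 11.06, 11.18, 11.25 and 11.33 at 24 h in treated cells against 11.53 to 11.69 and 11.48 to 11.69 in vehicle. It was lower with hormone on every array at 6 h and rose by 0.48 (SE 0.09, adjusted p = 0.0356) on non-overlapping arrays, and the treated arrays remained below the vehicle arrays at 24 h with an effect of -0.35 that was not called (adjusted p = 0.258). RXRA, a heterodimer partner of the receptor, rose by 0.52 (adjusted p = 0.0193). The call was lost without 6 of the 8 arrays, with an adjusted p of up to 0.120, for VDR, and without 5 of the 8 arrays, with an adjusted p of up to 0.0793, for RXRA. CYP27B1, the 1-alpha-hydroxylase that makes the hormone, measured 8.24 ± 0.33 and 8.52 ± 0.40, RXRB, the other tested partner receptor, 7.60 ± 0.29 and 8.19 ± 0.40, and neither was called. The calcium channel TRPV6 (change -0.19), the antimicrobial peptide gene CAMP (1.15), the 25-hydroxylase CYP2R1 (0.04) and the coactivators NCOA2 (-0.55) and MED1 (-0.52) were not called either. In CAMP the treated arrays lay at 2.92, 3.40, 2.92 and 2.92 at 6 h and 3.65, 3.88, 3.61 and 5.60 at 24 h, all 4 at 24 h above all 4 at 6 h, with replicate 4 far above the rest (adjusted p = 0.220).

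A smaller set was kept or built up. UCA1, a long non-coding RNA, measured 9.40, 9.44, 9.84 and 9.87 at 6 h and 9.46, 10.02, 9.51 and 10.32 at 24 h in treated cells against 5.47 to 6.74 and 4.70 to 5.91 in vehicle. The treated arrays overlapped between the times and lay above vehicle at both (effect 4.501 at 24 h, adjusted p = 0.00220). CALML3, an epithelial calmodulin, held 10.13 ± 0.10 and 10.36 ± 0.20, with an effect of 1.79 at 24 h (adjusted p = 0.0196). CST6, a cystatin protease inhibitor of the epidermis, held 10.31 ± 0.26 and 11.10 ± 0.64 on the probe set that stands for it (effect 3.20 at 24 h, adjusted p = 0.0282). A second CST6 probe set was called in the opposite direction, with a treated change of -2.87, so the course of CST6 is uncertain.

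Aldo-keto reductases of the AKR1C family, which reduce steroids, prostaglandins and other carbonyl compounds, rose. AKR1C1 measured 9.72, 9.68, 9.43 and 9.89 at 6 h and 10.58, 11.53, 11.77 and 12.12 at 24 h in treated cells against 7.23 to 8.08 in vehicle at 24 h. It was above vehicle on every array at 6 h and rose further by 1.82 (adjusted p = 0.0224), to an effect of 3.80 (adjusted p = 0.00607). The difference from the vehicle change was not called for AKR1C1. AKR1C2 went from 9.58 ± 0.20 to 11.27 ± 0.49 (adjusted p = 0.0115). AKR1C3 measured 3.17, 3.22, 3.10 and 3.10 at 6 h and 5.45, 5.67, 6.33 and 6.37 at 24 h, with 3.04 to 3.09 in vehicle. Its treated arrays at 6 h were at background like the vehicle arrays, and it rose 7.01-fold (adjusted p = 0.000765) with a called difference from vehicle (2.48, adjusted p = 0.000399). AKR1C1 and AKR1C2 are nearly identical in sequence, so 1 probe set may read transcripts of both. The call of AKR1C1 was lost without 6 of the 8 arrays, with an adjusted p of up to 0.0839.

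Genes of the cornified envelope and of squamous differentiation, the program that builds the outer layer of stratified epithelium, rose in part. Of 19 tested genes of a list of 41, 4 rose and 1 fell in treated cells, with a median change of 0.27, and 0 were called in vehicle (median 0.07). SPRR1B, a cornified envelope precursor, measured 8.17, 8.02, 7.49 and 7.55 at 6 h and 9.07, 9.87, 9.56 and 10.27 at 24 h in treated cells, and 8.38, 7.83, 8.35 and 7.79 and 8.77, 8.16, 7.97 and 7.93 in vehicle. The treated arrays at 24 h lay above all the others, with a rise of 3.70-fold (adjusted p = 0.0120) and a difference from vehicle of 1.77 (adjusted p = 0.0298), though the effect at 24 h was not called (adjusted p = 0.134). SPRR1A, its neighbour in the family, rose from 6.76 ± 0.13 to 8.73 ± 0.59 (adjusted p = 0.00976), with a difference just short of the threshold (1.69, adjusted p = 0.0553). KRTDAP, a secreted peptide of differentiating keratinocytes, went from 2.49 to 2.60, at background, to 4.75 to 6.19 (adjusted p = 0.00234). The vehicle arrays at 24 h held 5.71, 3.30, 2.89 and 2.99, replicate 1 among the treated values and the rest below them, and the difference was not called (adjusted p = 0.419). KLK5, the kallikrein that starts the shedding of cornified cells, rose from 2.70 to 2.90 to 3.90 to 5.88 with 2.31 to 2.41 in vehicle (adjusted p = 0.0280), a call lost without 6 of the 8 arrays, with an adjusted p of up to 0.103. SCEL (sciellin), an envelope precursor as well, fell from 7.37 ± 0.57 to 5.48 ± 0.56 (adjusted p = 0.0329), a call lost without 5 of the 8 arrays, with an adjusted p of up to 0.124. Its 3 other tested probe sets changed by -1.33 to 0.25 without a call. The call of SPRR1B was lost without 2 of the 8 arrays, with an adjusted p of up to 0.0535. The members that rose thus include a protease and a peptide beside the envelope precursors, and among 12 tested keratins 0 were called in treated cells. The AP-1 site, searched as TGANTCA, was held by 50% of the 14 genes of the list with a promoter, against 6.92% of tested genes and 7.71% of all promoters. SPRR1A, SPRR1B and KRTDAP held it, as did SCEL, which fell, and KLK5 did not. The promoters of SPRR1A (chr1:152983831-152984130) and SPRR1B (chr1:153030953-153031252), both on the plus strand, are shown with the site in capitals because the family rose together.
SPRR1A: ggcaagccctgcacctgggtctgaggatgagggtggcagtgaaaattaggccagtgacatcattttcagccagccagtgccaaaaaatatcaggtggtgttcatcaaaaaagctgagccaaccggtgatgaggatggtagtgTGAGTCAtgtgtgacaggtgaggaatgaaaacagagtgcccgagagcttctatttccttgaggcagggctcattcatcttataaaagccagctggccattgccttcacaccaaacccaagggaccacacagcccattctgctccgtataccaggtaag
SPRR1B: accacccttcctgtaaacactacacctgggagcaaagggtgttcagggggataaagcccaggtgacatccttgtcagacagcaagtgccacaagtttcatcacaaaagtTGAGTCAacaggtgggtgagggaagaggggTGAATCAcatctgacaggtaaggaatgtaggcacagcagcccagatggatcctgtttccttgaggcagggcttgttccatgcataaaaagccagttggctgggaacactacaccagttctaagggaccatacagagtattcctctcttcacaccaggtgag
Counted from the transcription start, the sites begin at base -108 in SPRR1A and at bases -141 and -111 in SPRR1B.

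Other proteins at the cell surface or secreted from it also built up. DNER, a transmembrane ligand of Notch, measured 4.84, 5.14, 5.19 and 5.11 at 6 h and 7.49, 7.37, 7.28 and 6.47 at 24 h in treated cells, and 4.63, 5.13, 5.51 and 5.47 and 4.48, 4.54, 4.33 and 4.43 in vehicle. It was at the vehicle level at 6 h and above every other array at 24 h, with a rise of 4.24-fold (adjusted p = 0.00303) and a difference of 2.82 (adjusted p = 0.000157). Of 15 tested Notch genes 3 rose and 2 fell. HES1, the best known Notch target, fell from 9.85 to 10.16 to 8.58 to 8.94 in treated cells (adjusted p = 0.00158) while vehicle cells rose from 7.47 to 7.61 to 8.32 to 8.49, and the ligand DLL1 fell by 0.73 (adjusted p = 0.0456) and ended below vehicle (-1.02, adjusted p = 0.0244). JAG2, another ligand, and NRARP, an inhibitor of the pathway, rose by 0.63 and 0.58 (adjusted p = 0.0139 and 0.0328). The calls of DLL1, JAG2 and NRARP were lost without 7, 3 and 7 of the 8 arrays (adjusted p up to 0.156, 0.0526 and 0.124). A second tested DLL1 probe set changed by 0.03 in treated cells without a call. TSPAN1, a tetraspanin, rose by 1.52 (adjusted p = 0.0197), with an effect of 2.58 at 24 h (adjusted p = 0.00939), a call of the rise that was lost without 4 of the 8 arrays, with an adjusted p of up to 0.0810. SLPI, a secreted inhibitor of leukocyte proteases with antimicrobial activity, measured 10.84, 10.89, 10.44 and 10.66 at 6 h and 11.81, 12.38, 12.28 and 12.57 at 24 h in treated cells against 10.81 to 11.17 in vehicle at 24 h. All its treated arrays at 24 h lay above the others, the rise was 2.93-fold (adjusted p = 0.00434), the effect at 24 h was 1.27 (adjusted p = 0.0337), and the difference from the vehicle change was not called (adjusted p = 0.103). IGFBP6, which binds mainly insulin-like growth factor 2, rose from 10.58 ± 0.17 to 12.22 ± 0.30 (adjusted p = 0.00234), the opposite direction to IGFBP3, with an effect of 2.12 at 24 h (adjusted p = 0.0148). The difference from the vehicle change was not called for IGFBP6.

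**Figure D4:**
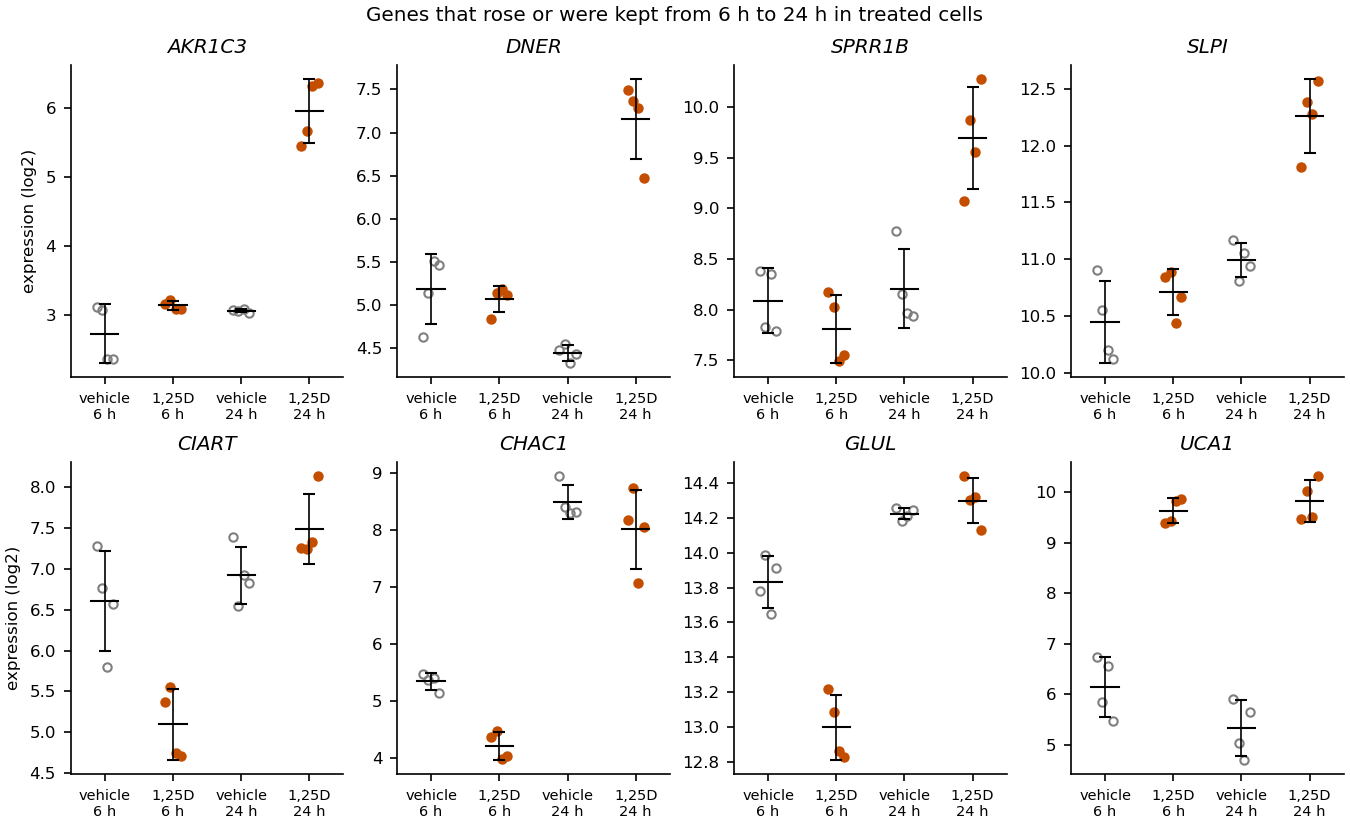
Level (log2, vertical axes differ) of 8 genes on each array at 6 h and 24 h. Open circles are vehicle and filled circles 1,25(OH)2D arrays, and the bars show the mean and SD of 4 arrays. AKR1C3, DNER, SPRR1B and SLPI are highest in treated cells at 24 h, CIART, CHAC1 and GLUL start low in treated cells at 6 h and meet vehicle at 24 h, and UCA1 is kept above vehicle.

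Some genes of amino acid supply and stress rose over the same hours with and without the hormone. Of 23 tested ATF4 targets and amino acid supply genes 5 rose and 1 fell in treated cells and 6 rose in vehicle, with medians of 0.07 and 0.37, and 17 were not called in treated cells. CHAC1, STC2 and SESN2 rose in both. CHAC1, an enzyme that degrades glutathione, measured 4.36, 4.47, 3.98 and 4.02 at 6 h and 8.17, 8.74, 7.06 and 8.06 at 24 h in treated cells, and 5.47, 5.36, 5.396 and 5.13 and 8.94, 8.40, 8.29 and 8.32 in vehicle. It started lower with the hormone (-1.14, adjusted p = 0.00353) and rose 13.9-fold (adjusted p = 0.00145) to a level that overlapped vehicle. STC2, a secreted glycoprotein, rose by 3.13 in treated and 3.31 in vehicle cells, SESN2, which restrains mTORC1 when leucine is low, by 2.06 and 1.36, and GDF15, a stress cytokine, by 2.47 and 2.39. TRIB3, a pseudokinase of the stress response, rose by 1.68 (adjusted p = 0.0220), and its vehicle change of 0.91 was not called (adjusted p = 0.0934). The difference between treated and vehicle was called for none of these 5 (adjusted p = 0.699, 0.906, 0.385, 0.952 and 0.644). GLUL (glutamine synthetase) measured 13.22, 13.08, 12.86 and 12.83 at 6 h and 14.44, 14.30, 14.32 and 14.13 at 24 h in treated cells against 13.65 to 13.98 and 14.18 to 14.26 in vehicle, and it did pass that test (0.91, adjusted p = 0.00439). It was below vehicle on every treated array at 6 h and within the vehicle range or around it at 24 h. CEBPB, a transcription factor and partner of ATF4, fell by 0.50 in treated cells (adjusted p = 0.0244) and rose by 0.67 in vehicle. STC2, GDF15, TRIB3 and CEBPB lost their calls without 5, 5, 2 and 6 of the 8 arrays (adjusted p up to 0.111). The CARE site that ATF4 binds, searched as TGATGNAA, was held by 31.6% of the 19 genes with a promoter, against 2.77% of tested genes and 3.62% of all promoters. Of the genes that rose here, CHAC1 held it, and STC2, SESN2, TRIB3, GLUL and GDF15 did not. The CHAC1 promoter (chr15:40953221-40953520, plus strand) is shown for the largest of these rises, with the reverse complement of the site in capitals from base -209.
CHAC1: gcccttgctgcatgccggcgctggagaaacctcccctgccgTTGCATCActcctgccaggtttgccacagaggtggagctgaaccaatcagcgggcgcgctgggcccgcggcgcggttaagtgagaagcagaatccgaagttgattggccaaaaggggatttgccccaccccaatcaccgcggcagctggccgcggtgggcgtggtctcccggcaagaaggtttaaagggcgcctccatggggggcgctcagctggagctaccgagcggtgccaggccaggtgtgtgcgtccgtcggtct

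Other rises common to both cultures were those of TSC22D3, a glucocorticoid-induced leucine zipper protein (2.09 in treated and 1.39 in vehicle cells), DAPK1, a proapoptotic kinase (1.99 and 1.63), SCNN1G, a subunit of the epithelial sodium channel (1.98 and 1.28), and TXNIP, an inhibitor of thioredoxin and glucose uptake (1.69 and 1.96). Their adjusted p in treated cells were 0.00144, 0.000577, 0.00454 and 0.00182, and 0 of the 4 passed the test of the difference. TSC22D3 and DAPK1 had been lower with 1,25(OH)2D at 6 h (-0.94 and -1.11).

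Among feedback regulators of the MAP kinases PHLDA1, SPRY1 and SPRY2 rose in both. Of 23 tested genes 5 rose and 1 fell in treated cells and 7 rose and 1 fell in vehicle, with medians of 0.49 and 0.55. PHLDA1, a growth factor response gene, measured 8.19 to 8.60 at 6 h and 9.86 to 10.25 at 24 h in treated cells and 9.67 to 9.89 and 10.61 to 11.02 in vehicle, lower with the hormone on every array at both times (effect -1.39 and then -0.76, the latter not called at adjusted p = 0.0788). It rose by 1.65 (adjusted p = 0.00107), and its 5 other tested probe sets changed by 0.26 to 1.39 without a call. SPRY1 and SPRY2, Sprouty inhibitors of receptor tyrosine kinase signaling, rose by 1.12 and 0.69 in treated and by 0.97 and 0.91 in vehicle cells, and SPRY2 stayed below vehicle at 24 h (-0.70, adjusted p = 0.0450). DUSP5, a nuclear ERK phosphatase, rose by 1.00 (adjusted p = 0.0310) with a vehicle change of -0.18 and a called difference (1.18, adjusted p = 0.0319), opposite to DUSP10. DUSP14, another MAP kinase phosphatase, rose by 0.81 (adjusted p = 0.0110). The calls of SPRY1, SPRY2 and DUSP5 were lost without 5, 5 and 6 of the 8 arrays (adjusted p up to 0.115, 0.0748 and 0.114). That of DUSP14 was lost without 1, replicate 2 of 1,25(OH)2D at 24 h (adjusted p = 0.0507).

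Of 19 tested clock genes 3 rose and 1 fell in treated cells. CIART, a repressor of the clock, measured 5.37, 5.56, 4.74 and 4.71 at 6 h and 7.26, 7.24, 7.33 and 8.13 at 24 h in treated cells, and 7.28, 6.77, 5.80 and 6.57 and 7.39, 6.55, 6.93 and 6.83 in vehicle. All treated arrays lay below vehicle at 6 h, where the effect of -1.51 was not called (adjusted p = 0.0595), and the groups overlapped at 24 h. It rose 5.26-fold (adjusted p = 0.00418), with a called difference (2.08, adjusted p = 0.0293). DBP and TEF, transcription factors of the clock output, rose by 1.78 and 1.19 in treated and changed by 1.23 and 0.37 in vehicle cells, where DBP was called (adjusted p = 0.0425) and TEF was not (adjusted p = 0.530). The 2 other tested TEF probe sets changed by 0.12 and 0.17 in treated cells without a call. BHLHE40, a repressor of the clock that had been an early rise, fell from 10.61 ± 0.18 to 9.83 ± 0.07 (adjusted p = 0.0106). With the 2 arrays at 24 h that stood apart left out, CIART kept its call (adjusted p = 0.0206) and DBP, TEF and BHLHE40 lost theirs (adjusted p = 0.0711, 0.0703 and 0.0683). Clock proteins bind the E-box CACGTG, which 27.8% of 18 clock genes with a promoter held, against 12.7% of tested genes and 7.26% of all promoters. CIART, TEF and BHLHE40 held it, and DBP did not. The CIART promoter (chr1:150282304-150282603, plus strand) is shown because it holds the box 3 times, in capitals, from bases -129, -71 and -57.
CIART: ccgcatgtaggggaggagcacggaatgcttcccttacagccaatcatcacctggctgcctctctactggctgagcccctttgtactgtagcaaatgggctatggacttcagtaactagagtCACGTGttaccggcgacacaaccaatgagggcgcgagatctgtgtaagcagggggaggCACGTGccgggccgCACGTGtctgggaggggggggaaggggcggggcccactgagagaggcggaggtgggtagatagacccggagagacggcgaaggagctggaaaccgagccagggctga
In the 113 early rises that fell and had a promoter, the CArG box of serum response factor was in 6.19%, against 1.54% of tested genes, the AP-1 site in 7.96% and the DR3 element of the vitamin D receptor in 0%, against 0.162% of tested genes. The window of 300 bases holds the proximal promoter alone, and no match says only that these letters are not in it.

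In 11 of the 57 gene lists genes were called in vehicle cells and 0 in treated cells. In 9 of them, among which were glycolysis, keratins and heat shock, this was 1 or 2 vehicle calls, and the other two had more. Of 39 tested interferon-stimulated genes, which serve antiviral defence, 13 rose in vehicle and 0 were called in treated cells, with medians of 0.63 and 0.10. The mean of the list was 7.34, 7.31, 7.18 and 7.42 in vehicle at 6 h and 8.13, 8.10, 7.66 and 7.93 at 24 h. In treated cells it was 7.26, 7.12, 7.42 and 7.09 at 6 h and 7.17, 7.19, 7.39 and 7.31 at 24 h, so on this measure all vehicle arrays at 24 h lay above all the others. On the summed level, which the brightest genes dominate, treated and vehicle arrays overlapped at 24 h (15.35 to 15.83 and 15.79 to 16.20). In the test of the difference 1 of the 39 genes was called, MX1, a GTPase that blocks viral replication, with 8.94 ± 0.20 and 8.61 ± 0.49 in treated and 8.70 ± 0.23 and 9.88 ± 0.44 in vehicle cells (-1.51, adjusted p = 0.0454). IFI44L rose by 2.08 in vehicle and changed by -0.02 in treated cells (difference adjusted p = 0.278), and OAS1, a sensor of double-stranded RNA, by 1.37 and 0.72 (difference adjusted p = 0.692).

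The second was ribosome biogenesis. Of 25 tested genes 7 fell in vehicle and 0 were called in treated cells, with medians of -0.39 and 0.07. The mean of the list was 10.50 to 10.62 in vehicle at 6 h and 10.09 to 10.23 at 24 h, against 10.34 to 10.43 and 10.32 to 10.53 in treated cells. It was lower with the hormone than with vehicle on every array at 6 h, and higher on every array at 24 h. The summed levels overlapped at both times (16.59 to 16.85 in treated and 16.67 to 16.83 in vehicle cells at 6 h, 16.49 to 16.71 and 16.50 to 16.69 at 24 h). The difference of the changes was called for 4 of the 25 genes, all higher in treated cells. They were URB2 (0.98, adjusted p = 0.00739), NOP16 (0.80, adjusted p = 0.0426) and RRS1 (0.66, adjusted p = 0.00895), assembly factors of the large subunit, and POLR1B, a subunit of RNA polymerase I (0.55, adjusted p = 0.0151).

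**Figure D5:**
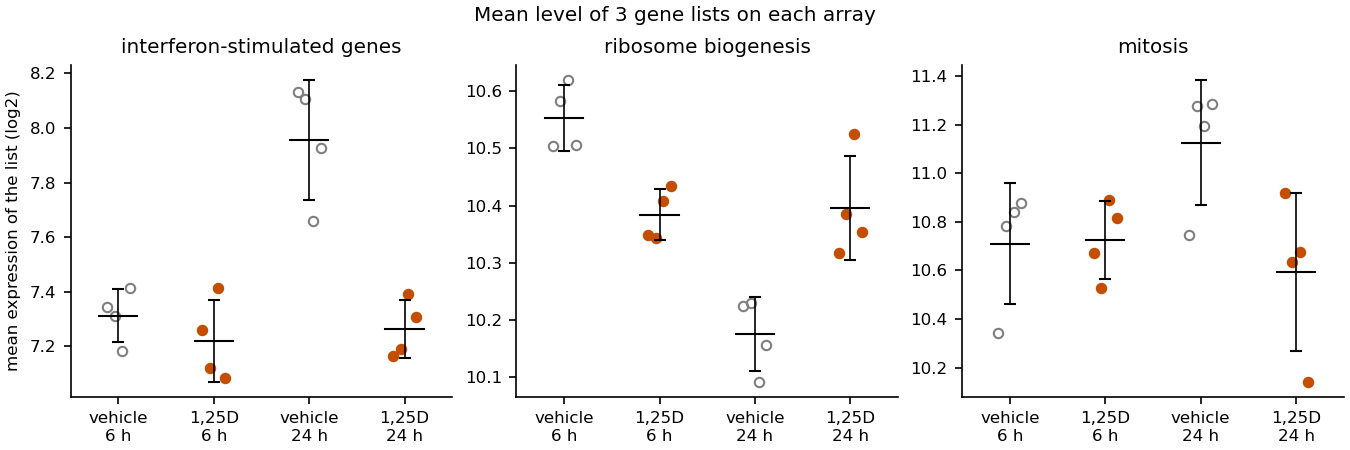
Mean level (log2, vertical axes differ and do not start at 0) of 3 gene lists on each array at 6 h and 24 h. Open circles are vehicle and filled circles 1,25(OH)2D arrays, and the bars show the mean and SD of 4 arrays. Interferon-stimulated genes are highest in vehicle cells at 24 h (7.66 to 8.13), genes of ribosome biogenesis are lowest there, and the mitosis list spreads widely in treated cells at 24 h.

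Several large programs gave few or no calls in treated cells. Of 45 tested mitosis genes 2 rose in treated and 8 in vehicle cells, with medians of -0.01 and 0.37. The difference was called for 0 of the 45 (limma), with a median of -0.35, against 0.6% of all genes called higher and 1.31% lower. At 24 h the list means overlapped (10.14 to 10.92 in treated and 10.74 to 11.29 in vehicle cells). The summed levels did not (17.17 to 17.23 and 17.38 to 17.54). Whether the list as a whole moved apart was not tested. For the 41 genes of DNA replication, the 34 of the respiratory chain and the 20 of G1 cyclins, kinases and inhibitors the treated count was 0, and their medians were 0.05, 0.01 and -0.33. Among all genes 2.13% rose and 1.98% fell, and counts of 0 in lists of this size are near those shares. Treated replicate 4 at 24 h had the lowest mean of the mitosis list. The 22 tested genes of calcium and cyclic AMP signalling had 5 falls, among them the early rises AKAP12, GEM and HCAR3, and 0 rises, where 1.98% of all genes fell. In vehicle cells the list had 3 rises, HCAR3 among them, and 2 falls, AKAP12 among them. Of the 118 genes described 92 were called in the treated change. Among those 92, 57 kept the call with each of the 8 arrays left out in turn and 35 lost it at least once, and 70 kept it without the 2 arrays that stood apart at 24 h.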

How the data were processed

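RNA of 24 RWPE1 samples was labelled and hybridised to Affymetrix U133 Plus 2.0 arrays. The authors processed the 24 arrays jointly by gcRMA, whose version is not given in the sources used here, and deposited log2 values of 54613 probe sets and 62 controls. Arrays have no read depth, and the 4 arrays per group limit the precision.

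Present calls were not used here. Instead, without the controls, probe sets were ranked by the value that 3 of 4 arrays of at least 1 of the 6 groups attained, and the top 25986 were tested, as many as the study kept. Each of 12008 genes is read from its brightest tested probe set that carries no second symbol. Contrasts were fitted with limma 3.58.1 (lmFit and eBayes, R 4.3.3), 8 arrays for a change or an effect and 16 for the difference of the changes. The study's own test was SAM. Motifs were searched on both strands of RefSeq promoters (86 of 118 described genes matched). Tables used Python 3.11.15, pandas 2.3.3, numpy 2.4.6, scipy 1.17.1 and matplotlib 3.10.9. The fits were tested on simulated data.

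Correlations of the deviations of same-numbered arrays at 6 h and 24 h were -0.68, 0.21, 0.61 and -0.63 in treated and 0.82, 0.42, 0.27 and 0.63 in vehicle cells. All the vehicle values lay above 0.1, so the numbers were taken to pair the vehicle arrays alone. Vehicle replicates 1 and 2 correlated best with their own number, and replicates 3 and 4 did not, so the pairing is uncertain. The highest correlation between 2 arrays was 0.998, and no array was taken for a copy.

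The members and gene lists were chosen with earlier results of these data known. Of 177 genes that met the naming rule, 101 are described and 76 are not. The rule is by rank (the 15 largest rises and falls of the treated change, the 15 largest rises and 10 largest falls of the early effect, the 10 largest differences each way, up to 3 rises and 3 falls per list, the vitamin D system, markers, clock and immediate early genes). GCLM, CST6, CALML3, UCA1, GLUL, TRIB3, TXNIP, DUSP14, SPRY2, MX1, IFI44L, OAS1, NOP16, RRS1, POLR1B, URB2 and PLAU were named after their values were seen. KDR, which met the rule as a marker, is named without its values, and KRT8 and KRT18 are described only through the summed level of their list. Alternatives were all 24 arrays in one fit, no filter, a stricter filter (15000 probe sets), a second quantile normalization, centring on medians, an offset of 32, trend and robust options, array weights, SAM, the replicate block, leaving arrays out and averaging the probe sets of each gene.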

Additional observations from a re-analysis of the deposited data

Results flagged for a closer look

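Of 472 pairs of a described gene and a group of 4 arrays, 30 had 1 array far from the other 3, with a gap to the nearest of them, relative to the group's whole range, above Dixon's critical value. Chance flags about 1 in 20 groups. In vehicle 24 h replicate 1 the level (log2) stood apart for ZFP36 (9.29), WNT7A (7.03), PTGER4 (8.44), LRIG3 (7.19), KRTDAP (5.71), CHAC1 (8.94), TEF (8.88), IER3 (12.70), SPRY2 (9.49), KRT14 (16.12) and TRPV6 (5.54). In vehicle 6 h replicate 1 the level (log2) stood apart for CYP24A1 (4.06), P2RY2 (5.74), PADI3 (8.52), ABCA1 (5.42), EGR3 (3.62), NCOA2 (5.12) and KLK3 (4.19). In 1,25(OH)2D 24 h replicate 4 the level (log2) stood apart for CIART (8.13), CAMP (5.60) and KLK3 (5.20). In 1,25(OH)2D 6 h replicate 2 the level (log2) stood apart for FOS (8.44) and CAMP (3.40). In vehicle 24 h replicate 4 the level (log2) stood apart for GEM (2.79). In vehicle 6 h replicate 4 the level (log2) stood apart for RASSF5 (6.10). In vehicle 6 h replicate 3 the level (log2) stood apart for IGFBP3 (11.85). In 1,25(OH)2D 6 h replicate 1 the level (log2) stood apart for DAPK1 (5.68). In 1,25(OH)2D 24 h replicate 3 the level (log2) stood apart for TEF (8.34). In vehicle 6 h replicate 2 the level (log2) stood apart for MX1 (8.35). In 1,25(OH)2D 24 h replicate 2 the level (log2) stood apart for CYP2R1 (3.59). 

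In 57 of the described genes the treated change differed from the vehicle change (limma, adjusted p under 0.05 over all tested probe sets). The treated change minus the vehicle change (log2) was below 0 in HCAR3 (-5.30), ABCA1 (-4.83), G0S2 (-4.79), ADAMTS15 (-4.34), GEM (-4.19), CYP24A1 (-3.99), SEMA6D (-3.71), SHE (-3.53), ABTB3 (-3.38), FOS (-3.33), KLK6 (-3.30), RASSF5 (-3.09), CD14 (-3.04) and IGFBP3 (-2.89). It was also below 0 in TXNRD1 (-2.76), AKAP12 (-2.69), CYP26B1 (-2.54), EGR3 (-2.34), PLAT (-2.34), HES1 (-2.17), DUSP10 (-2.13), KLF4 (-1.98), P2RY2 (-1.96), SERPINB1 (-1.92), NANOS1 (-1.85), RGCC (-1.82), GCLC (-1.63), PLAU (-1.55), MX1 (-1.51), ZFP36 (-1.50), THBD (-1.40), DLL1 (-1.39), LAMB3 (-1.37), CEBPB (-1.17), BHLHE40 (-0.96) and IL1B (-0.67). It was above 0 in PHACTR3 (3.83), DNER (2.82), AKR1C3 (2.48), KLK5 (2.38), FIBIN (2.10), CIART (2.08), KCNJ15 (1.81), SPRR1B (1.77), TSPAN1 (1.75), WNT7A (1.58), AKR1C2 (1.57), DUSP5 (1.18), PRR16 (1.14), APCDD1 (1.13), ETS2 (1.11), URB2 (0.98), GLUL (0.91), NOP16 (0.80), RRS1 (0.66), VDR (0.55) and POLR1B (0.55). Each value is also the effect at 24 h minus the effect at 6 h. In AKAP12, GEM, ADAMTS15 and SHE both groups were at background at 24 h, so their values restate the effects at 6 h. The cause of these differences was not tested.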

How the results depend on the processing

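The direction of the 92 described genes called in the treated change was the same under every alternative that tested them (10 of the 92 are not tested under the stricter filter). All called genes had treated arrays that did not overlap between the times. Leaving out or weighting arrays, the filters, the offset and the fit options thus could not reverse a direction. SAM took the direction of the main fit. The exception in direction among genes without a call was CST6, whose treated change became -1.04 with the mean of its probe sets. Among called genes, the other tested probe sets of GCLM, MAFF, RXRA, BHLHE40, SPRY1 and SCARB1 went the same way without a call. The counts of calls differed widely between the alternatives. In treated cells 426 probe sets were called higher and 452 lower, 2305 and 2039 with all 24 arrays in one fit, 242 and 284 with arrays centred on their medians, 1224 and 987 with array weights, 4438 and 2783 with SAM, and 142 to 599 and 233 to 511 with 1 array left out. With the replicate number as a block, though the numbers do not pair the treated arrays, 43 were higher and 98 lower. In vehicle cells 513 were higher and 611 lower, 1039 and 994 with all 24 arrays, 291 and 384 centred, 2878 and 3218 with array weights, 1937 and 2218 with the block, 1944 and 2194 without the 4 arrays that stand apart, 1796 and 1974 with SAM, and 137 to 739 and 121 to 916 with 1 array left out. For the difference of the changes 111 were higher and 253 lower. The number higher was 203 with all 24 arrays, 67 centred, 2973 with array weights, 69 with the block, 252 without the 4 arrays and 61 to 215 with 1 array left out, and the number lower was 152 centred and 1779 with array weights. Early rises that fell numbered 137, and 212 with all 24 arrays, 85 centred, 48 with the block, 264 with SAM and 83 to 150 with 1 array left out. Early falls that rose numbered 40, and 77 with all 24 arrays, 86 with array weights, 11 with the block, 95 with SAM and 19 to 44 with 1 array left out. The cause of these shifts was not tested. The other alternatives left these counts within 1.5 times. SAM was not run on the difference, as its 2-class form has no such contrast.

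With 4 arrays per group and a mean SD of 0.399 in treated cells at 24 h, small changes are not resolved there, and a gene without a call is not shown to be unchanged. Levels near or below the filter threshold (3.20) are close to background, so folds from or to them rest on it. The arrays that stand apart differ in many genes at once, and without both at 24 h in treated cells 294 probe sets were higher and 334 lower.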
